A study of Mus musculus with 4 samples.

Results

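The response of epididymal fat to high fat-high sucrose (HFHS) chow was followed in the genes that differed the same way in mice with and without adipocyte Mir221/222, relative to standard (STD) chow. A gene belonged to this shared response when both HFHS arrays lay above both STD arrays, or both lay below. Of 10123 genes that were measured (mean over the 4 arrays of at least 6 on the log2 scale), 5410 met this rule, 2470 of them higher on HFHS chow (24.4% of measured genes) and 2940 lower (29.0%). The remaining 4713 genes overlapped between the chows. A gene whose 4 arrays fell in random order would meet this rule with a probability of 0.333, so membership alone does not show a response to chow. Because the array values themselves chose these genes, their direction and their difference between chows are given as a description.

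The 4 arrays came from 4 male mice (C57BL/6J in the labels, C57BL/6JJcl in the study's methods) killed at 16 weeks of age, 1 mouse for each genotype (flox/y and AdipoKO) on each chow (STD and HFHS). The flox/y mice carried the floxed Mir221/222 allele without Cre, and in their AdipoKO littermates a Cre transgene under the adiponectin (Adipoq) promoter deleted it, so all 4 mice carried the floxed allele and the deletion was limited to cells that use this promoter. The STD chow was MF and the HFHS chow D12331, which differ in their fat and sugar and also in other ingredients, so what is called a chow difference is that between 2 whole diets. Groups were taken from the sample titles, which the descriptions and genotypes match, whereas the source field of the labels names another microRNA line and, for both flox/y arrays, the opposite chow to that in the title and description (for both AdipoKO arrays the chow is the same). The chow of the flox/y arrays thus rests on titles and descriptions. With the chows of the source field, every flox/y difference given here would have the opposite sign, while the AdipoKO differences would stay. No gene of the shared response given here would then meet the rule, and a shared set would come from other genes. With 1 mouse per group, the p-values below weigh the mean chow difference against the disagreement between the chow differences of the 2 genotypes, moderated across genes. The spread between mice of a group could not be measured. An exact permutation test of 2 arrays against 2 cannot go below 0.333 (two-sided).

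White fat stores energy as triglyceride. Its adipocytes take up fatty acids released from lipoproteins, make new ones from acetyl-CoA, and release them again by lipolysis when insulin is low, while leptin reports the size of the store to the brain. As a fat depot enlarges in obesity, its matrix is remodelled and macrophages that take up lipid gather around adipocytes. Values below are the deposited normalized log2 values turned back to a linear scale, called expression values, on which 64 corresponds to the level of 6 used as background. In whole tissue, fewer cells of a type and less RNA per cell cannot be told apart.

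The arrays were alike in their overall level, with medians of 5.39 to 5.42 on the log2 scale and correlations over measured genes of 0.925 to 0.971. The adipocyte genes Adipoq, Fabp4 and Cidec were high on all 4 arrays, Adipoq at 1836, 1755, 1730 and 1767. Here and below, 4 values are those of the STD arrays (flox/y, then AdipoKO) followed by those of the HFHS arrays (flox/y, then AdipoKO). The probe sets of Mir221 and Mir222 lay below 6 on all 4 arrays, so they gave no check of the deletion. Both flox/y arrays stood apart. HFHS flox/y held a high level of hepatocyte transcripts (albumin, Alb, at 414, 913, 4739 and 288; 16 measured hepatocyte markers summed to 16545 against 1419 to 2880 on the other arrays). STD flox/y held a high level of immediate early genes (Egr1 at 1044, 91.9, 108 and 287; 27 measured members summed to 15316 against 7333 to 9845). Neither hepatocyte markers as a group nor most immediate early genes were part of the shared response, and the part of either array in the results was not tested.

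Most members of the shared response differed little between chows. The median fold difference was 1.19 for the genes higher on HFHS chow and 1.22 for those lower, and the gap between the closest arrays of the chows was under 1.1-fold for 55.9% of the former and 50.7% of the latter. A gap of at least 1.5-fold, with values below 6 first set to 6, was left by 96 genes higher on HFHS chow (0.948%) and 96 lower (0.948%). At this threshold the last gene inside on the higher side was Dpt, with a gap of 1.505-fold, and the first outside was Pltp with 1.499-fold. On the lower side Slc25a42 was the last inside with 1.5-fold and St3gal6 the first outside with 1.497-fold. In limma with genotype as covariate, 608 genes were higher (6.01%) and 776 lower (7.67%) at an unadjusted p under 0.05, and 0 at an adjusted p under 0.05 (smallest limma adjusted p 0.307), so no gene below passed a corrected test. The balance between directions depended on scaling: with each array centred on its measured probe sets, the counts without overlap became 3050 higher and 2349 lower, those with a 1.5-fold gap 119 and 74, and those of limma 762 and 605.

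Chow separated the arrays more widely than genotype did. With the genotypes compared in the same way, 1864 genes did not overlap (18.4% of measured genes, against 53.4% for chow). For arrays in random order this probability is 0.333 in either comparison. A 1.5-fold gap between genotypes was left by 3 genes with higher and 7 with lower values in AdipoKO mice. Across the measured genes, the chow difference in flox/y mice and that in AdipoKO mice, which share no array, had the same sign in 6386 genes (63.1%) and correlated with a Pearson r of 0.28 and a Spearman rho of 0.36. Genes are not independent replicates, and no p is attached to this. Of 528 genes at least 1.5-fold higher on HFHS chow in flox/y mice and 382 in AdipoKO mice, 132 were shared (25.0% of the former and 34.6% of the latter). Of 766 and 394 lower genes, 143 were shared (18.7% and 36.3%). Conversely, 23 genes were 1.5-fold higher in flox/y and 1.5-fold lower in AdipoKO mice, and 47 showed the opposite. Among the 96 genes with wide gaps on the higher side, the chow difference was larger in flox/y mice for 70 (median 2.20-fold, against 1.91-fold in AdipoKO mice), whereas on the lower side it was larger in flox/y mice for 45 of 96 (median 1.93-fold and 1.94-fold).

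**Figure D1:**
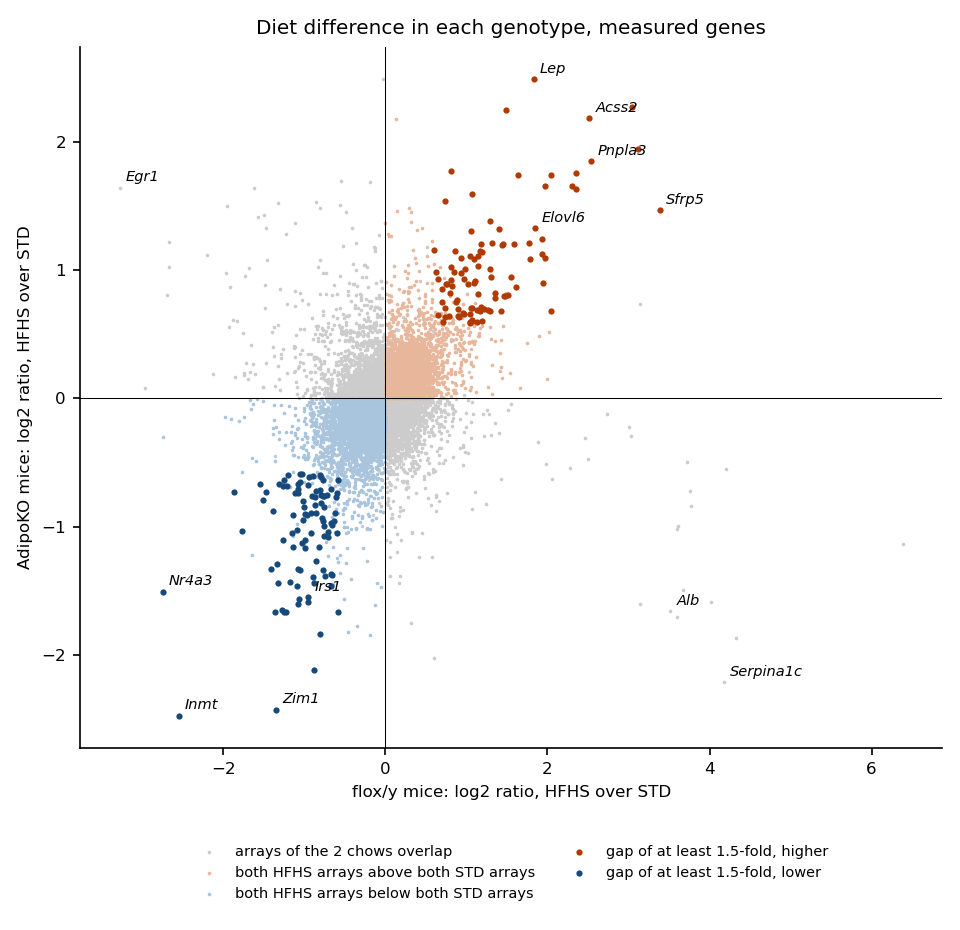
Log2 ratio of HFHS over STD chow in AdipoKO mice (vertical axis) against that in flox/y mice (horizontal axis) for each of 10123 measured genes, 1 mouse per group. Dark points are the 96 genes higher and 96 lower with a gap of at least 1.5-fold, pale points the other genes without overlap and grey points those that overlapped, among them Alb, Serpina1c and Egr1 with opposite signs in the 2 genotypes.

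Acss2, which makes acetyl-CoA from acetate, had the widest gap of the genes named by the rule on the higher side. It measured 117, 142, 671 and 647, a log2 difference of 2.35 (SE 0.15, limma adjusted p 0.307) and 5.71-fold and 4.56-fold in the 2 genotypes. Both STD arrays were low and both HFHS arrays high, with genotypes close together on each chow. Elovl6, which lengthens palmitate, measured 62.9, 95.2, 226 and 239, and Tecr, which completes the elongation cycle, 538, 569, 1427 and 1426. For both genes the HFHS arrays lay close together and above the STD arrays. Pnpla3, a lipid droplet enzyme induced by feeding in mice, measured 92.6, 161, 539 and 582.

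The lipogenic pathway as a whole differed less evenly than its leading genes. Among the 23 measured members of the fatty acid and triglyceride synthesis list, 13 were higher on HFHS chow without overlap, 5 were lower and 5 overlapped. The higher and lower shares were 56.5% and 21.7%, against 24.4% and 29.0% of all measured genes. The median log2 difference was 0.55 (0.33 in flox/y and 0.24 in AdipoKO mice), while the median over all measured genes was -0.017. The list median was 0.38 without the HFHS flox/y array and 0.39 without the STD flox/y array (all measured genes, -0.02 and -0.015). Fatty acid synthase, Fasn, measured 828, 1975, 3410 and 3173, higher on both HFHS arrays but 4.12-fold in flox/y and 1.61-fold in AdipoKO mice, and its STD arrays differed from each other. The enzymes that supply its carbon and NADPH followed: the malic enzyme Me1 was 1046, 1046, 2002 and 2058, the mitochondrial citrate carrier Slc25a1 572, 732, 1117 and 1164, and the pentose phosphate enzyme Pgd 434, 574, 897 and 909. ATP citrate lyase, Acly, was 1.38-fold and 1.64-fold higher, the lipogenic regulator Srebf1 1.94-fold and 1.31-fold, and the abundant desaturase Scd1 1.26-fold and 1.18-fold. Dgat2, which adds the last fatty acid of triglyceride, measured 588, 632, 2035 and 1346.

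The 5 lower members sat at other steps. Gpam, the mitochondrial acyltransferase that starts glycerolipid synthesis, measured 2773, 1863, 1116 and 1173, and Acacb, the mitochondrial acetyl-CoA carboxylase whose product restrains fatty acid oxidation, 956, 813, 471 and 540. Neither overlapped between chows, and both were at least 1.5-fold lower on every HFHS array than on every STD array. Dgat1, the other diacylglycerol acyltransferase, was 1.46-fold and 1.41-fold lower, Lpin1, which makes diacylglycerol, 1.44-fold and 1.41-fold, and the carbohydrate-responsive factor Mlxipl 1.17-fold and 1.14-fold. The paired acyltransferases thus lay on opposite sides, Dgat2 higher and Dgat1 lower, in both genotypes.

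**Figure D2:**
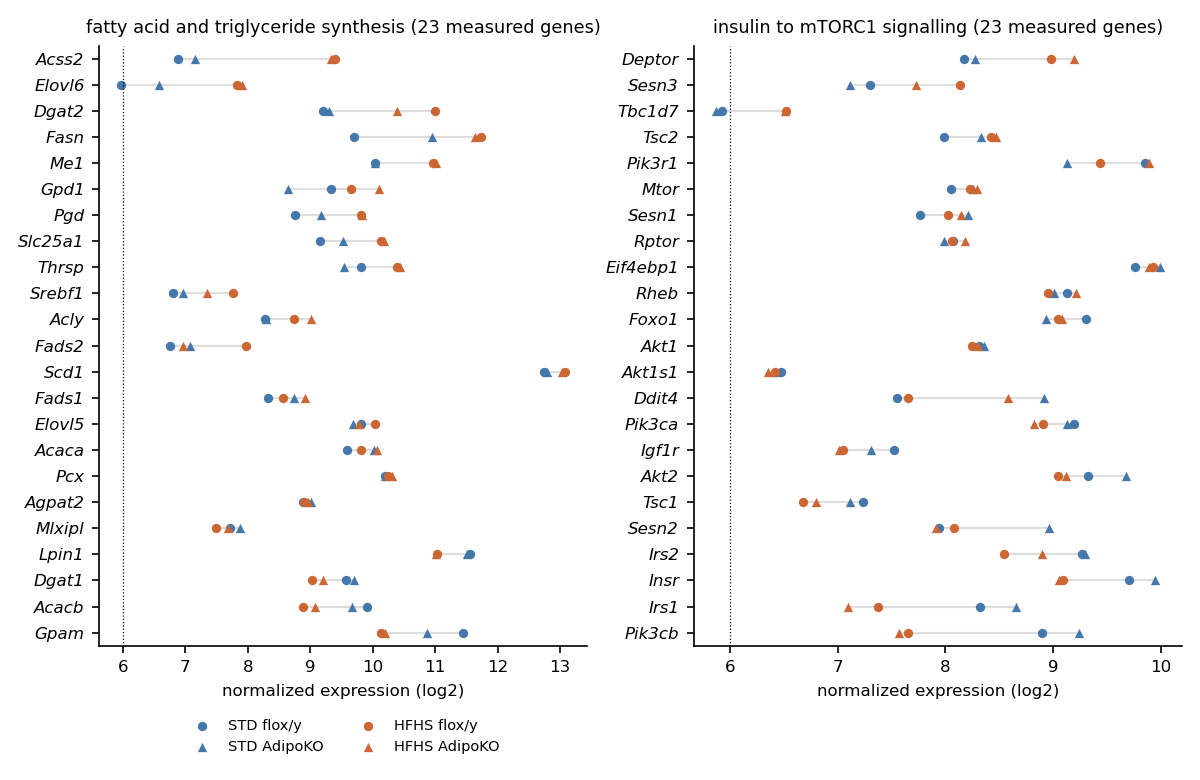
Normalized log2 expression (horizontal axis) of 23 measured genes for making fatty acids and triglyceride and 23 of insulin to mTORC1 signalling on each of the 4 arrays (circles flox/y, triangles AdipoKO, blue STD, orange HFHS; dotted line, the background level of 6). Genes are ordered from the highest to the lowest HFHS over STD ratio; in the left panel 13 genes were higher without overlap, in the right panel 10 were lower.

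Sterol synthesis showed a similar pattern at lower amplitude. Of 15 measured genes of cholesterol synthesis and uptake, 11 were higher and 2 lower without overlap. These are 73.3% and 13.3%, against 24.4% and 29.0% of all measured genes. The median log2 difference was 0.35 (0.40 in flox/y and 0.15 in AdipoKO mice). Nsdhl, a late enzyme that removes methyl groups from sterol intermediates, led the higher genes with 121, 186, 416 and 432. Lss, which closes the sterol ring, was 45.8, 50.9, 98.8 and 85.2, and Sqle, the enzyme before it, was 59.9, 61.4, 80.1 and 85.8. For both genes the STD arrays lay below the background level, so Lss was at least 1.43-fold and Sqle at least 1.30-fold higher. The cytosolic synthase Hmgcs1, at the entry of the pathway, went the other way, with 960, 1330, 607 and 512. It lay lower on both HFHS arrays, 1.58-fold in flox/y and 2.60-fold in AdipoKO mice.

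Of 14 measured genes of fatty acid uptake, 9 were higher and 2 lower (64.3% and 14.3%, against 24.4% and 29.0% of all measured genes; median log2 difference 0.13). The fatty acid binding protein Fabp5 was 199, 183, 354 and 336, and the caveolar coat genes Cav1, Cav2 and Cavin1 were 1.28-fold to 1.52-fold higher, with no overlap between chows. Fabp4, the abundant relative of Fabp5, was 7374, 7498, 7691 and 7806, a difference of 1.04-fold, which shows how small a difference the rule admits. Of 16 lipolysis and lipid droplet genes, 5 were higher and 4 lower (31.25% and 25.0%). The latter included Pde3b, through which insulin restrains lipolysis (3315, 3174, 2015 and 2170), and the droplet coat gene Plin2 (2313, 1610, 1271 and 1273).

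Several insulin receptor signalling genes were lower on HFHS chow. Pik3cb, a catalytic subunit of phosphoinositide 3-kinase, measured 477, 604, 201 and 190, a log2 difference corresponding to 2.75-fold (SE 0.16 on the log2 scale, limma adjusted p 0.307). The adaptor Irs1, which docks that kinase to the receptor, measured 320, 403, 166 and 137, and the receptor Insr itself 836, 987, 544 and 532. On each of these genes the HFHS arrays of both genotypes lay below both STD arrays, and the difference was larger in AdipoKO mice (2.93-fold for Irs1 and 1.85-fold for Insr, against 1.93-fold and 1.54-fold in flox/y mice). The second adaptor Irs2 was 618, 628, 374 and 477, and the kinase Akt2 641, 818, 529 and 556.

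In the whole list from insulin to mTORC1, 10 of 23 measured genes were lower and 4 higher without overlap (43.5% and 17.4%, against 29.0% and 24.4% of all measured genes), and the median log2 difference was -0.06. The 4 higher genes are all known to restrain mTORC1: Deptor, an inhibitor bound to mTOR, with 289, 309, 504 and 586, Sesn3, which dampens the complex, with 158, 138, 282 and 212, and Tsc2 and Tbc1d7, subunits of the complex that switches off Rheb, 1.22-fold and at least 1.43-fold higher. Tsc1, their partner in that complex, was lower (151, 139, 103 and 111), so the subunits of this complex did not lie on the same side. Ddit4, an inhibitor of mTORC1, was not a member of the shared response: it measured 187, 483, 202 and 384, and its STD and HFHS arrays overlapped. Slc2a4, the insulin-responsive glucose transporter, was higher (162, 155, 254 and 296). Without the HFHS flox/y array, 11 of the 23 list genes were lower and 8 higher (median -0.03), against 40.6% and 35.0% of all measured genes. Without the STD flox/y array, 14 were lower and 7 higher (median -0.08), against 39.8% and 34.6%.

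Leptin led the genes that track fat mass. Lep measured 793, 530, 2821 and 2986, 3.56-fold higher in flox/y and 5.63-fold in AdipoKO mice (limma log2 SE 0.20, adjusted p 0.307). The HFHS arrays were close to each other and the lower of them was 3.56-fold above the higher STD array. Sfrp5, a secreted Wnt inhibitor, measured 54.1, 138, 565 and 383, with its STD flox/y value below background, and Npr3, the clearance receptor for natriuretic peptides, 599, 726, 2280 and 1723. Of 10 measured genes listed for adipose expansion, 7 were higher and 1 lower (70.0% and 10.0%, against 24.4% and 29.0% of all measured genes). Their medians were 1.32 in flox/y and 0.45 in AdipoKO mice. The median of the mean difference was 0.76, or 0.35 without the STD flox/y array. The list was assembled with such values known. Mest, an imprinted gene that marks enlarging fat, measured 439, 1418, 1749 and 1578, and its difference in AdipoKO mice was 1.11-fold.

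Peg3, a paternally expressed zinc finger gene, measured 2186, 2709, 904 and 863, and Zim1, a maternally expressed gene close to it on mouse chromosome 7, 260, 592, 102 and 110. Both were lower on HFHS arrays in both genotypes, Zim1 by 2.54-fold and 5.39-fold. Grb10, an imprinted inhibitor of insulin receptor signalling, was also among the 96 genes with wide gaps on the lower side, whereas Mest, imprinted too, lay on the higher side.

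**Figure D3:**
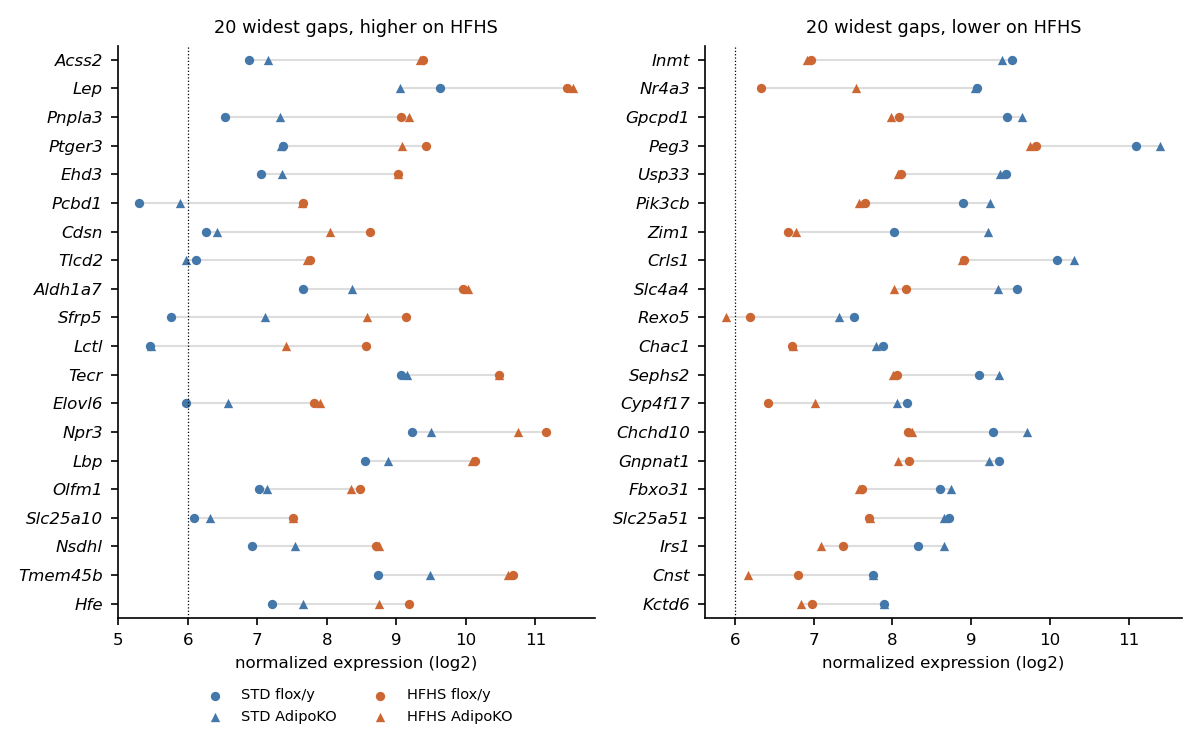
Normalized log2 expression (horizontal axis) on each of the 4 arrays for the 20 named genes with the widest gap on either side (circles flox/y, triangles AdipoKO, blue STD, orange HFHS; dotted line, the background level of 6). In every row the 2 HFHS points lie on 1 side of the 2 STD points, which is how the genes were chosen; Acss2 and Inmt have the widest gaps, 4.56-fold and 5.37-fold.

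The other wide gaps on the higher side covered several functions. Ptger3, a prostaglandin E2 receptor that restrains lipolysis, was 165, 162, 685 and 542. Ehd3, an endosomal recycling protein, was 132, 164, 518 and 518, and Aldh1a7, an aldehyde dehydrogenase whose sequence is close to Aldh1a1, 202, 330, 999 and 1042. Lbp, which binds bacterial lipopolysaccharide, was 373, 469, 1125 and 1084, and the mitochondrial dicarboxylate carrier Slc25a10 67.8, 79.9, 183 and 183. Pcbd1, a cofactor-recycling enzyme, was 39.4, 58.9, 201 and 200, and with both STD arrays below background it was at least 3.13-fold higher. Lctl was likewise at background on STD chow and at least 3.97-fold higher. In each of these genes both HFHS arrays lay above both STD arrays.

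Inmt, which methylates indoleamines, had the widest gap of all on the lower side. It measured 733, 674, 125 and 121, a log2 difference of -2.51 (SE 0.12, limma adjusted p 0.307), with 5.85-fold and 5.56-fold differences in flox/y and AdipoKO mice. The nuclear receptor gene Nr4a3, an immediate early gene, measured 540, 530, 80.4 and 186. Both STD arrays of Nr4a3 were high, so it did not follow the high level of other immediate early genes on the STD flox/y array. Its relative Nr4a1 did, with 1051, 346, 157 and 281. Crls1, the cardiolipin synthase of the inner mitochondrial membrane, was 1093, 1270, 483 and 472, Gpcpd1, which cleaves glycerophosphocholine, 701, 803, 272 and 253, and Slc4a4, a sodium bicarbonate cotransporter, 765, 651, 289 and 259. Sephs2, which supplies selenium for selenoproteins, was 551, 653, 267 and 258, and the secreted selenoprotein Gpx3 703, 638, 351 and 355.

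Promoter sequences of the genes with the widest gap in each direction, with RefSeq coordinates of GRCm38.p6 and 250 bases before to 50 after the start site, are shown so that the regions can be examined beside these values; capitals mark a CCAAT box on the opposite strand in Acss2 (chr2:155517793-155518092, plus strand) and matches of TATAAA in Inmt (chr6:55174941-55175240, minus strand).
Acss2: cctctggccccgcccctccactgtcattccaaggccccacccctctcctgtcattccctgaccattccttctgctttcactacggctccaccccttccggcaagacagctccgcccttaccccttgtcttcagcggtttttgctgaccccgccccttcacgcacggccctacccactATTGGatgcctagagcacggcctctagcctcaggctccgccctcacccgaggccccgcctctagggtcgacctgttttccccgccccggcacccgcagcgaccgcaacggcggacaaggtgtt
Inmt: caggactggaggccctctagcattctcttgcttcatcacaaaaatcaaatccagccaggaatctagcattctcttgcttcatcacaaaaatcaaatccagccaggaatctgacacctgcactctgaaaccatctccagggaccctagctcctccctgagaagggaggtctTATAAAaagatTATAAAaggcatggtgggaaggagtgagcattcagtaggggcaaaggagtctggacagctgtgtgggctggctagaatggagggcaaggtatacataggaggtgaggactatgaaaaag

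Short motifs, 6 in all, were searched on both strands of such promoters, which were found for 7980 measured genes, 78 of the 96 genes higher and 74 of the 96 lower with wide gaps. CCAAT occurred in 41.6% of the measured genes, 51.3% of the higher and 50% of the lower genes, TATAAA in 9.1%, 12.8% and 13.5%, and CACGTG, the E-box, in 11.9%, 11.5% and 12.2%. TGACGTCA, the cAMP response element, occurred in 3.4%, 2.6% and 2.7%, among them Pnpla3 on the higher and Peg3 on the lower side, and TCACNCCAC, a sterol regulatory element, in 1.3%, 2.6% and 1.4%. TGATGNAA, the core of the C/EBP-ATF response element through which ATF4 acts, occurred in 2.9%, 6.4% and 6.8%, in 5 genes on each side. No matches marked by capitals overlap each other, the motifs were chosen after the genes were known, and a match is not evidence of binding.

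Amino acid stress genes driven by ATF4 were lower at some members. Chac1, which degrades glutathione and is a classical target of ATF4, measured 235, 222, 106 and 107. The asparagine synthetase gene Asns measured 592, 590, 248 and 368. Atf4 itself was 267, 237, 184 and 212, and Ddit3, a factor induced by it, 147, 110, 105 and 85.7. These 4 genes did not overlap between chows. The serine synthesis genes Psat1 and Phgdh, which ATF4 also drives, were higher, Psat1 with 128, 102, 181 and 181. Over the whole list of endoplasmic reticulum stress and ATF4 genes, 7 of 21 were higher and 5 lower. These are 33.3% and 23.8%, against 24.4% and 29.0% of all measured genes, and the median log2 difference was 0.07. Without HFHS flox/y the counts were 7 and 10 with a median of -0.03 (all measured genes, 35.0% higher and 40.6% lower). Without STD flox/y they were 10 and 6 with a median of 0.14 (all measured genes, 34.6% and 39.8%). The promoters of Chac1 (chr2:119350992-119351291, plus strand) and Asns (chr6:7693160-7693459, minus strand) both held TGATGNAA, 193 and 23 bases before the start site, and that of Hmgcs1 (chr13:119690101-119690400, plus strand) held the only TCACNCCAC among the lower genes, 137 bases before it. They are shown because these are known targets of the factors that bind those motifs, with capitals for these matches and for CCAAT boxes, which appear as their reverse complement where the match lies on the opposite strand.
Chac1: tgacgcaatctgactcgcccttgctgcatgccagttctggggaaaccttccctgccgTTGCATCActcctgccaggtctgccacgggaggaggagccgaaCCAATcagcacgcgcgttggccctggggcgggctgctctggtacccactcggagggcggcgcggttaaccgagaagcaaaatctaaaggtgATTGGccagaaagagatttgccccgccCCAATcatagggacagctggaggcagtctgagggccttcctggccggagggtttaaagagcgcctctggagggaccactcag
Asns: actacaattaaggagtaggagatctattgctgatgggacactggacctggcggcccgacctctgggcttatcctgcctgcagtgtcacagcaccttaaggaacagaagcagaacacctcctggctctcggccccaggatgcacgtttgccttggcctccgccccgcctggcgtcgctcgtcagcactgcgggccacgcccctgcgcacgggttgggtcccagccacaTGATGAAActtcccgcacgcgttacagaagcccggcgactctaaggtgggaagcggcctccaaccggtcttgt
Hmgcs1: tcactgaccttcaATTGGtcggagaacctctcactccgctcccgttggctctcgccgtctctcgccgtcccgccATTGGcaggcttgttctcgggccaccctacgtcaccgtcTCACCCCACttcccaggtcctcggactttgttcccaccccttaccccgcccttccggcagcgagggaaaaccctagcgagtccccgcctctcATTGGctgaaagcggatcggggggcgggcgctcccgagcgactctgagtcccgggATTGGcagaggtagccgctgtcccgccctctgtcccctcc

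Of 21 measured genes for the breakdown of branched-chain amino acids, a pathway active in fat, 12 lay below and 4 above without overlap (57.1% and 19.0%, against 29.0% and 24.4% of all measured genes; median log2 difference -0.19; -0.31 in flox/y and -0.10 in AdipoKO mice). Ppm1k, the phosphatase that activates the branched-chain ketoacid dehydrogenase, measured 330, 316, 182 and 170, and its opponent Bckdk, the kinase of that enzyme, was 1.04-fold and 1.17-fold higher. Bckdha, Bckdhb and Dbt, subunits of the dehydrogenase, were all lower, Bckdha with 406, 416, 315 and 314. Further down the pathway, Hsd17b10 was 239, 252, 150 and 155.

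Of 20 fatty acid oxidation genes 10 were higher and 6 lower (50% and 30.0%, against 24.4% and 29.0% of all measured genes), of 33 respiratory chain and ATP synthase genes 10 and 6 (30.3% and 18.2%), and of 27 genes of glycolysis, pyruvate and the TCA cycle 13 and 6 (48.1% and 22.2%). The differences of the named respiratory genes were between 1.11-fold and 1.18-fold. Ppargc1a, a coactivator of mitochondrial biogenesis, measured 106, 116, 45.4 and 36.5, so that both HFHS arrays lay below background and the difference was at least 1.74-fold. Tpi1, a glycolytic isomerase, had the widest gap of the latter list, with 272, 386, 730 and 620. Pdk2, which switches off pyruvate dehydrogenase, was lower (731, 884, 535 and 537).

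Matrix genes lay mostly on the higher side. Of 40 measured extracellular matrix genes, 29 were higher on HFHS chow without overlap and 2 lower, 72.5% and 5.0% against the 24.4% and 29.0% of all measured genes, with a median log2 difference of 0.41 (0.46 in flox/y and 0.34 in AdipoKO mice). Col15a1, a collagen of basement membranes around adipocytes, measured 133, 151, 367 and 262. The 3 chains of collagen VI, a collagen abundant in obese fat, were all higher: Col6a1 was 636, 689, 1427 and 1010, Col6a2 278, 300, 635 and 445, and Col6a3 227, 225, 465 and 317. In each chain the HFHS flox/y array was highest. The fibrillar collagens Col1a1 and Col3a1 were 2.49-fold and 2.67-fold higher in flox/y but 1.20-fold and 1.28-fold in AdipoKO mice. Without the HFHS flox/y array, 31 of the 40 genes were higher and 5 lower, against 35.0% and 40.6% of all measured genes in that comparison.

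Adipose stromal markers were split. Of 15 measured markers of progenitors and fibroblasts, 5 were higher and 3 lower, and their median log2 difference was 0.18, or -0.09 with the HFHS flox/y array left out. Among the higher members, Pi16 was 166, 136, 288 and 237, Mfap5 666, 658, 1258 and 955, and Thy1 135, 121, 235 and 189. Among the lower members, Anxa3 was 690, 735, 618 and 567. Of 12 mesothelial markers, which belong to the outer lining of the depot, 6 were lower and 0 higher (median -0.31, or -0.53 without STD AdipoKO). Among all measured genes, 29.0% were lower and 24.4% higher. Leaving out the STD flox/y array gave 6 lower and 3 higher (median -0.22), against 39.8% and 34.6% of all measured genes. Leaving out the HFHS flox/y array gave 8 lower and 0 higher (median -0.40), against 40.6% and 35.0%. Gpm6a measured 582, 458, 345 and 255, Upk1b 468, 402, 312 and 272, and Upk3b 790, 647, 559 and 436. The summed level of the 12 markers was 3697 and 3047 on STD and 2731 and 2285 on HFHS chow. The part of the share of lining and stroma in each piece of fat was not tested.

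**Figure D4:**
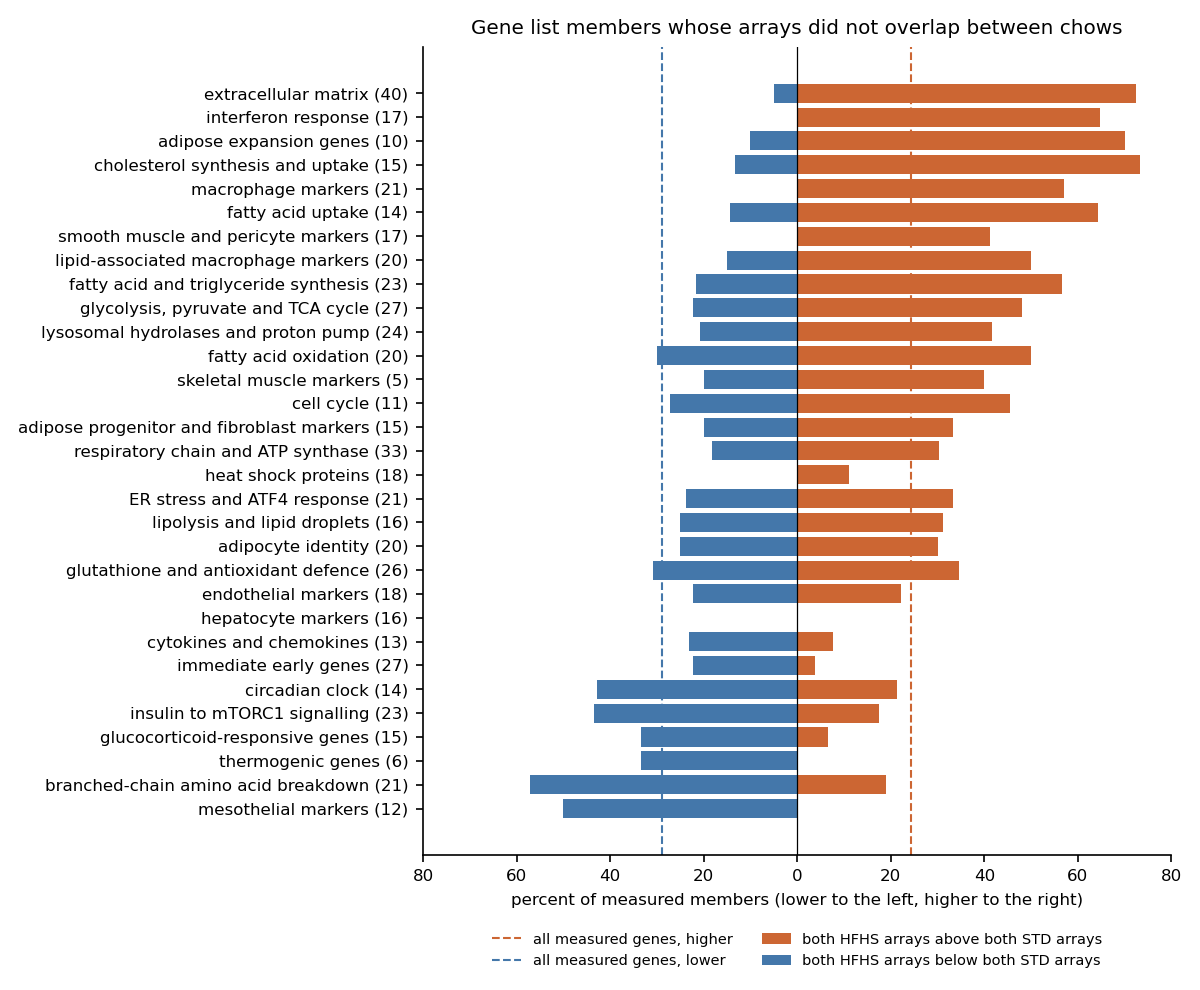
Percentage of the measured members of each gene list (number of members in brackets) with both HFHS arrays above (orange, to the right) or below (blue, to the left) both STD arrays; dashed lines give the same percentages over all 10123 measured genes, 24.4% and 29.0%. Extracellular matrix, interferon response and macrophage lists lean to the right, mesothelial and branched-chain amino acid lists to the left, and no hepatocyte marker is on either side.

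Macrophage and interferon genes leaned to the higher side at small amplitude. Of 21 measured macrophage markers, 12 were higher and 0 lower (57.1% and 0.0%, against 24.4% and 29.0% of all measured genes). Their median log2 difference was 0.29 (0.37 in flox/y and 0.12 in AdipoKO mice). Their summed level was 8553 and 7699 on STD against 11230 and 9168 on HFHS chow. The defining markers did not all take part. Cd68 measured 604, 690, 1094 and 749, whereas Adgre1 (125, 140, 250 and 130) and Csf1r (344, 347, 504 and 315) overlapped between chows. Both were highest on HFHS flox/y. On HFHS AdipoKO, Adgre1 lay between the STD arrays and Csf1r below both. Without HFHS flox/y the median of the list was 0.09, with 13 markers higher and 5 lower, against the same 35.0% and 40.6%. Of 20 markers of lipid-associated macrophages, 10 were higher, 3 lower and 7 overlapped. Fabp5, a higher member, had the widest gap. Also higher were the lysosomal protease Ctsd (1960, 1959, 3852 and 3093) and the galectin Lgals3 (151, 136, 281 and 232). The 3 lower members were Plin2, Cd63 and Acp5. Gpnmb (253, 143, 490 and 111) and Mmp12 (179, 85.6, 378 and 78.5) were among those that overlapped. The median was 0.47 (0.76 in flox/y and 0.19 in AdipoKO mice), or 0.13 without HFHS flox/y and 0.75 without HFHS AdipoKO. Fabp5 and Ctsd are made by adipocytes too.

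Of 17 measured interferon response genes, 11 were higher and 0 lower (64.7% and 0.0%, against 24.4% and 29.0% of all measured genes). Their median was 0.29 (0.32 in flox/y and 0.21 in AdipoKO mice). Irf7, a master regulator of the type I response, measured 90.7, 77.01, 133 and 115, Cxcl9, a chemokine induced by interferon gamma, 377, 328, 502 and 654, and Rsad2, an antiviral enzyme, 135, 122, 169 and 164. Without the HFHS flox/y array, 12 were higher and 2 lower, against 35.0% and 40.6% of all measured genes in that comparison. Of 13 cytokines and chemokines 1 was higher and 3 lower (7.7% and 23.1%). Among the latter was Cxcl12, a chemokine of stromal cells, with 474, 733, 369 and 364. Of T and NK cell, B cell, and neutrophil and mast cell markers, 3, 2 and 2 were measured and 0 lay without overlap.

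Lysosomal, redox and clock genes were split. Npc2, which hands cholesterol to the lysosomal membrane, was 1356, 1352, 2547 and 2096. Of 24 lysosomal genes, 10 were higher and 5 lower (41.7% and 20.8%, against 24.4% and 29.0% of all measured genes). Their median was 0.15, and -0.02 without the HFHS flox/y array. Of 26 glutathione and antioxidant genes, 9 were higher (34.6%), such as Gstm2 (260, 311, 461 and 470), and 8 lower (30.8%), such as Gpx3. Of 14 clock genes 3 were higher and 6 lower (21.4% and 42.9%). Npas2, a partner of Bmal1, was the clearest with 210, 207, 125 and 122, and Per1 followed with 660, 706, 515 and 490.

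A few cell cycle genes were higher on HFHS chow, though most of that list was at background. Of 33 listed genes 11 were measured, 5 of them higher and 3 lower (45.5% and 27.3%, against 24.4% and 29.0% of all measured genes). Mki67, which marks dividing cells, measured 85.0, 93.2, 194 and 206, and Ccna2 44.1, 49.5, 88.9 and 86.9. With both STD arrays below background, Ccna2 was at least 1.37-fold higher. The helicase subunit Mcm7 was lower, with 105, 105, 72.2 and 69.3. Muscle and acinar markers, checked as signs of other tissues, were few, with 5 and 2 measured. The muscle markers summed to 642, 1093, 888 and 909, and the acinar markers to 132, 139, 160 and 166. Myl1 was 139, 163, 234 and 239, and the other members without overlap differed by at most 1.30-fold. Of the testis and epididymis markers 1 was measured, at 2044, 1946, 2035 and 1895, and it overlapped between chows.

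Adipocyte identity genes did not follow the response as a group. Of 20 measured, 6 were higher, 5 lower and 9 overlapped. The higher and lower shares were 30.0% and 25.0%, against 24.4% and 29.0% of all measured genes. The median log2 difference was -0.05. Rbp4, a retinol carrier secreted by fat, was higher (782, 937, 1635 and 1432), and the receptors Adipor2 (2628, 2529, 1486 and 1771) and Acvr1c (894, 870, 587 and 504) were lower. Plin1 was 861, 1029, 1221 and 1079, and Cidec overlapped with 6886, 6670, 6341 and 6697. The summed level of immediate early and of heat shock genes was highest on the STD flox/y array (12762 for heat shock genes, against 7534 to 9823). Immediate early genes had a median of -1.12 in flox/y and 0.31 in AdipoKO mice, and heat shock genes of -0.46 and 0.13. Yet only 6 of 27 immediate early genes were lower without overlap and 1 higher (22.2% and 3.7%). Of 18 heat shock genes, 0 were lower and 2 higher (0.0% and 11.1%). Without the STD flox/y array the medians were 0.13 and 0.36. Cryab, a small heat shock protein, was higher on both HFHS arrays, with 248, 394, 707 and 689.

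**Figure D5:**
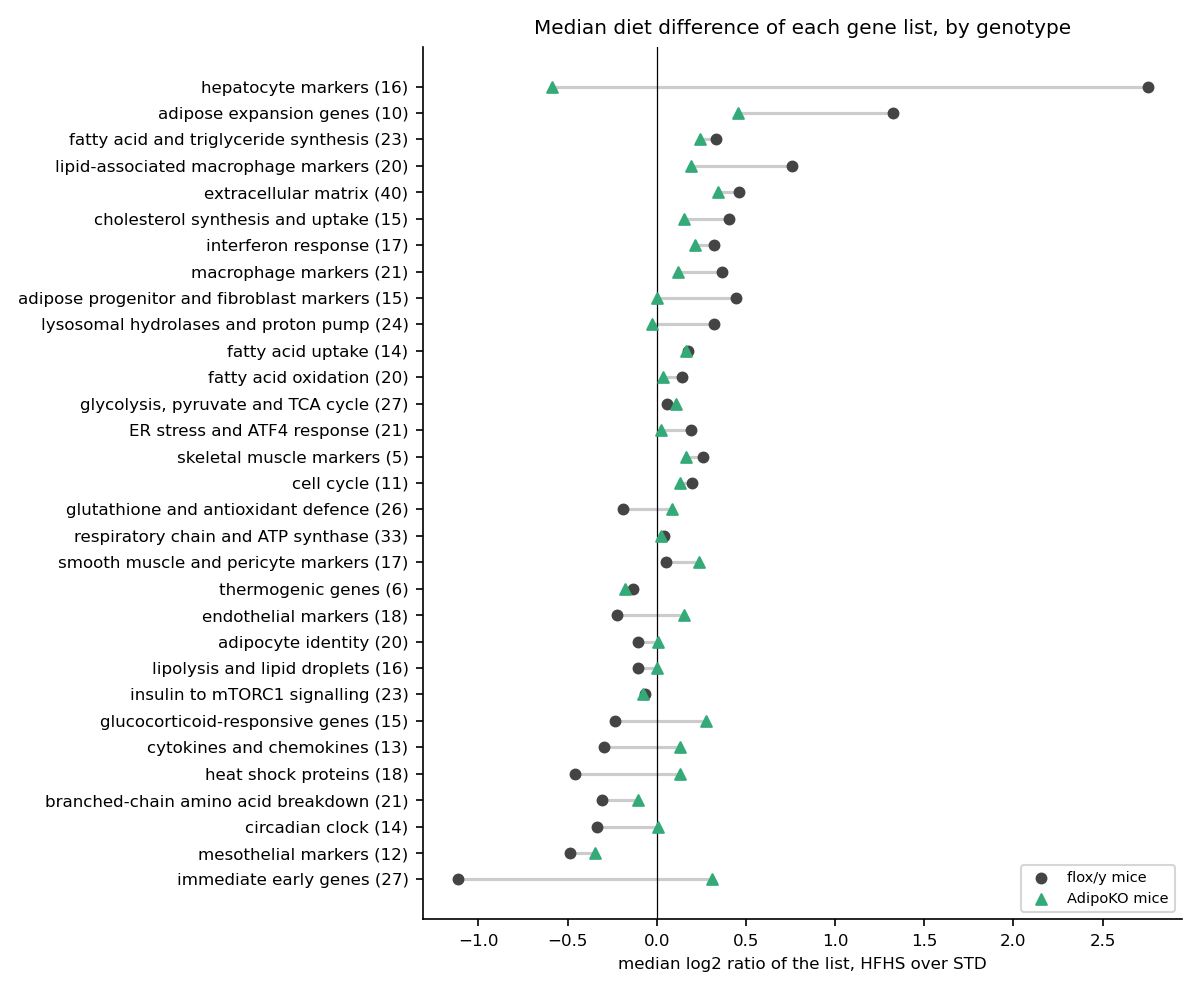
Median log2 ratio of HFHS over STD chow of each gene list (number of measured members in brackets) in flox/y mice (black circles) and AdipoKO mice (green triangles), ordered by the median of the mean of both. The genotypes lie close for fatty acid synthesis (0.33 and 0.24) and matrix (0.46 and 0.34) and far apart for hepatocyte markers (2.75 and -0.59) and immediate early genes (-1.12 and 0.31).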

How the data were processed

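Total RNA of epididymal fat was hybridized to 4 GeneChip Mouse Gene 2.0 ST arrays, 1 mouse each. Values were deposited on the log2 scale for 41345 probe sets, normalized by the authors with a method not given in the sources used here. Arrays carry no read depth. Platform annotation gave 1 symbol to 23521 probe sets, several to 1820 (not named) and none to 16004. Each of 22180 genes was represented by its probe set with the highest mean, and a mean log2 value of at least 6 (chosen as background) left 10123 measured genes. Quantities below this level are bounds, with values below 6 set to 6.

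Chow was tested over all measured genes with limma 3.58.1 in R 4.3.3 (lmFit with chow and genotype, eBayes with trend, Benjamini-Hochberg adjustment), with 1 residual degree of freedom. The script was tested on simulated data. Lists were 37 in number (821 entries, 749 matched, 589 measured) and are described by counts and medians, with no set test. Genes were named by rule: the 20 widest gaps in each direction, leaving out predicted, receptor-family, immunoglobulin and small RNA transcripts; up to 5 widest-gap members of each list; the 8 largest opposite changes; and Ddit4, Lep, Adipoq, Alb, Mir221 and Mir222. Other genes are named as members of a list or at a threshold and were chosen after their values were seen. Members, lists and rule were chosen with earlier results of these data known. Coordinates and promoters are from RefSeq (GRCm38.p6).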

Additional observations from a re-analysis of the deposited data

Results flagged for a closer look

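The following genes and lists differed in opposite directions between the genotypes, with 1 mouse per group, so no difference was tested. Values are the log2 ratio of HFHS over STD chow in flox/y mice minus that in AdipoKO mice. Liver-type transcripts had the largest: Serpina1c 6.39, Mug1 6.19, Tat 5.31, Alb 5.18, Cyp4a14 4.75 and Serpina1d 5.60, with 3.34 for the median of the hepatocyte markers. The immediate early gene Egr1 had -4.92 and the cell surface proteoglycan Sdc4 -3.26. Ddit4 had 0.44 and Adipoq -0.10.

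List medians with opposite signs were immediate early genes (-1.43), heat shock proteins (-0.59), glucocorticoid-responsive genes (-0.51), adipose progenitor and fibroblast markers (0.45), cytokines and chemokines (-0.43), endothelial markers (-0.38), lysosomal genes (0.35), circadian clock (-0.34), glutathione and antioxidant defence (-0.28), lipolysis and lipid droplets (-0.11), adipocyte identity (-0.11) and erythroid markers (-0.41, 1 measured gene). Opposite changes of any size occurred in 3734 of 10123 measured genes.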

How the results depend on the processing

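Genes without overlap on the higher side numbered 1496 with a mean log2 value of at least 7 and 5615 with no filter, and those on the lower side 4454 with no filter and 4427 over all probe sets, as fewer or more features were counted. Leaving out each array in turn gave 3501 to 3748 genes higher without overlap, and with 1.5-fold gaps 168 to 303 higher and 187 to 352 lower, which hold the 96 and 96 genes of the full set, since fewer arrays ease the rule. A gap of 2-fold left 29 and 15. With no filter limma called 1150 genes higher at an unadjusted p under 0.05. Without genotype in the model, limma called 1 gene, Inmt, at an adjusted p of 0.0283; over the other alternatives the smallest adjusted p was between 0.0931 and 0.325. Of 1260 values of 180 named genes under alternatives, 167 moved by more than the spread between genotypes and 0 turned direction among those called; of 366 list medians, 71 moved. Macrophage and lipid-associated macrophage medians were lower by over 1.5 times without the HFHS flox/y array (0.09 and 0.13); list counts without this array were added after seeing the data. No paired analysis was possible because the groups share only replicate number 1, other than the pairing of chows within genotype that the genotype term of the model makes. Values near 6 are limited by background.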
